A study of Mus musculus with 15 samples.

Results

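The solute carriers (Slc genes) are the largest named group of membrane transporters, and here they were followed in mouse neural stem cells. Members were the genes whose array symbol follows the Slc pattern of a family number, a letter and a member number. The rule took 418 of 22626 tested probe sets, which stood for 261 of 12393 genes in 48 families. Of these, 33 were mitochondrial carriers of the Slc25 family and 228 were other Slc genes. The 228 included 3 genes that carry the name but are no transporters, the adaptors Slc9a3r1, Slc9a3r2 and Slc4a1ap. The parts compared by level were selected on measured values, namely the mean level over all 15 arrays. The members were split at the median of these levels, 6.03 on the log2 intensity scale of the arrays. This put 28 Slc25 genes and 102 others above it and 5 Slc25 genes and 126 others at or below it. Just above the split lay the glucose transporter gene Slc5a2 at 6.15, and at it and just below lay the phosphate transporter gene Slc34a2 at 6.03 and the glucose transporter gene Slc2a3 at 5.99.

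Neurospheres, floating clusters of neural stem and progenitor cells, were grown from female C57/B16 mice aged 6 weeks and were sampled 48 h after stimulation. The treated cultures received CD95L-T4, a trimeric form of the ligand of the receptor CD95 (Fas). There were 3 arrays of polysomal RNA from CD95L-T4 cultures, 4 of polysomal RNA from control cultures, 4 of total RNA from CD95L-T4 cultures and 4 of total RNA from control cultures. No transgene or allele is named, the controls are called only control, and whether a replicate is 1 mouse or a pool is not stated in the labels. The replicates are called biological, and the p-values measure the spread between these samples.

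Transporters of the plasma membrane and of the endoplasmic reticulum (ER) and Golgi are inserted into the membrane at the ER, where their mRNAs are translated by bound ribosomes. Slc25 proteins are made mostly in the cytosol and are imported into the inner membrane of the mitochondria, where they exchange nucleotides, phosphate, amino acids, metals and cofactors. Neural stem cells rely on Slc proteins for glutamate, lactate, amino acid, zinc and chloride transport. Polysomes are mRNAs that carry several ribosomes, so polysomal RNA against total RNA compares the abundance of a transcript among mRNAs under translation with its abundance in the whole cell.

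Array medians lay between 6.83 and 6.88 log2 units on polysomal arrays and between 6.92 and 6.98 on total RNA arrays, so the fractions did not overlap. Percentiles here rank the brightest probe set of a marker among all 22626 tested probe sets, not among genes. Of 8 neural stem cell markers 7 were measured, with a median at the 76th percentile, although Prom1 lay at percentile 14.1. All 6 microglia, 5 endothelial and 5 fibroblast markers lay below the 40th percentile. Markers of neurons, astrocytes and the oligodendrocyte lineage had medians at percentiles 23.3, 36.5 and 42.3, but some were high, with Map2 at 78.3, S100b at 65.4, Gja1 at 92.9 and Olig2 at 96.5. Polysomal RNA was obtained by phenol-chloroform extraction and is labelled polyA RNA, whereas the total RNA came from mirVana kit columns and is labelled total RNA. RNA fraction, extraction and molecule label cannot be told apart in any comparison of polysomal with total RNA. The added poly-A control transcripts averaged 8.18 to 9.86 on polysomal arrays and 7.41 to 8.59 on total RNA arrays, and their part in the differences below was not tested.

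Slc25 genes were more often called higher than lower in polysomal RNA, and the other Slc genes more often lower than higher, except that scaling the arrays to equal medians gave the others 59 higher and 58 lower calls in control cultures. In CD95L-T4 cultures 18 of the 33 Slc25 genes were higher in polysomal than in total RNA and 7 were lower (limma, adjusted p under 0.05), with a median log2 difference of 0.318. Of the 228 other Slc genes, 16 were higher and 70 lower, with a median of -0.0583. Among all genes tested 29.6% were higher and 21.8% lower, with a median of 0.0733. In control cultures 19 Slc25 genes were higher and 6 lower, with a median of 0.245, and 34 other Slc genes were higher and 66 lower, with a median of 0.015. There, 33.5% of all genes were higher and 23.2% lower, with a median of 0.0975. In a mixed RNA, fewer cells that express a gene and less RNA per cell cannot be told apart.

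The arrays of the fractions were separate for most of these calls. In CD95L-T4 cultures polysomal and total arrays did not overlap for 18 of 18 Slc25 genes called higher, 7 of 7 called lower, 12 of 16 other Slc genes called higher and 69 of 70 called lower. In control cultures this held for 18 of 19, 6 of 6, 29 of 34 and 65 of 66. Among all genes it held for 88.7% of those called higher and 91% of those called lower in CD95L-T4 cultures, and for 89% and 94.8% in control cultures, so the members' counts lie near the background. With equal medians the other Slc genes had 38 higher and 66 lower calls in CD95L-T4 cultures. The Slc25 genes then had 19 higher and 7 lower there, and 20 higher and 5 lower in control cultures.

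The falls lay among the abundant genes. Of the 102 other Slc genes above a level of 6.03, 6 were higher and 63 lower in polysomal RNA of CD95L-T4 cultures, with a median of -0.40, against 39.1% and 32.4% of all genes above that level. In control cultures 14 were higher and 59 lower, with a median of -0.33, against 39.7% and 35% of all genes. Below that level 10 of 126 were higher and 7 lower in CD95L-T4 cultures, against 14.6% and 5.21% of all genes. In control cultures 20 were higher and 7 lower, against 23.6% and 4.71%. Of the 28 Slc25 genes above the level, 15 were higher and 7 lower in CD95L-T4 cultures and 16 were higher and 6 lower in control cultures, and of the 5 below it 3 were higher and none was lower in each. Among members above 7.96, 4 of 46 other Slc genes were higher and 33 lower in control cultures, and 11 of 19 Slc25 genes were higher and 5 lower, against 39.9% higher and 37.6% lower of 5299 genes above that level.

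**Figure D1:**
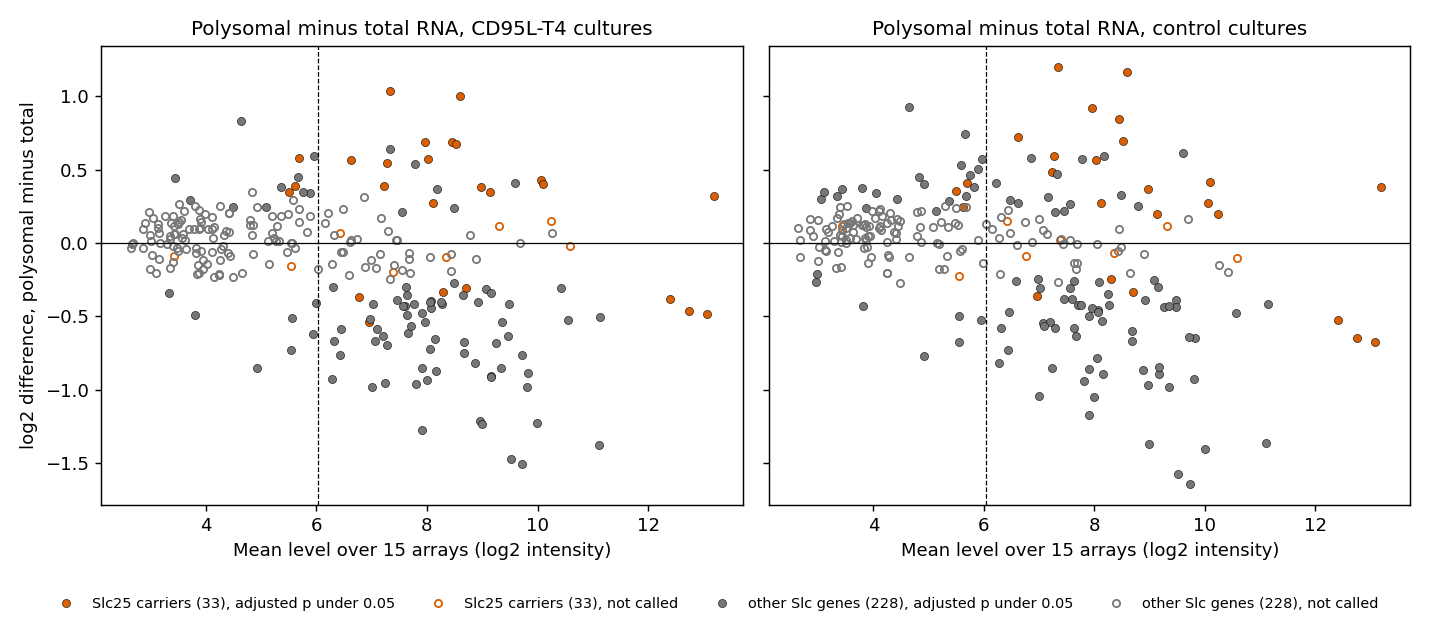
Each point is 1 of 261 Slc genes, with its mean level over 15 arrays (log2 intensity) on the horizontal axis and its polysomal minus total difference (log2) on the vertical axis, for CD95L-T4 cultures on the left and control cultures on the right. Filled points have an adjusted p under 0.05 and the dashed line marks the median level of 6.03; right of it the Slc25 genes lie mostly above 0 and the other genes mostly below it.

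Across genes, level and control difference had a Pearson correlation of -0.31 over 33 Slc25 genes, -0.53 over 228 other Slc genes and -0.07 over 12393 genes. This is a description, since all genes share the same arrays. The direction was shared by the cultures, which have no arrays in common. Of the other Slc genes called lower, 63 were called in both cultures, 90% of those called in CD95L-T4 cultures and 95.5% of those called in control cultures. For those called higher the number was 13, or 81.3% and 38.2%. Of the Slc25 genes called higher 18 were shared, all of those in CD95L-T4 cultures and 94.7% of those in control cultures, and no Slc gene was called in opposite directions. Over all genes, the shared calls were 92.2% and 86.6% of those lower and 87.5% and 77.4% of those higher, also with 0 in opposite directions, so most of the members' sharing lies near the background. No Slc gene was called for a difference between the cultures, so a call in 1 culture and not in the other, where given below, is no difference between them.

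Abundant amino acid transporters were mostly lower. Of 13 amino acid and peptide transporter genes above 6.03, 10 were lower and 1 higher in polysomal RNA of CD95L-T4 cultures (median -0.75), and 9 were lower and 2 higher in control cultures (median -0.67). Over all levels 12 of 33 were lower in each culture, with 3 higher in CD95L-T4 cultures and 5 in control cultures. Role counts above 6.03, here and below, are to be read against all genes above that level. These were 39.1% higher and 32.4% lower in CD95L-T4 cultures and 39.7% and 35% in control cultures. For all genes over all levels the shares were 29.6% higher and 21.8% lower in CD95L-T4 cultures and 33.5% and 23.2% in control cultures. The glutamate transporter Slc1a3 (GLAST), a product of radial glia and neural stem cells, had 9.39, 9.30 and 9.34 log2 units in polysomal RNA and 10.56, 10.70, 10.43 and 10.58 in total RNA of CD95L-T4 cultures. The control values were 9.35, 9.33, 9.15 and 9.19 in polysomal RNA and 10.74, 10.54, 10.71 and 10.65 in total RNA. Every polysomal array lay more than 1 log2 unit below every total RNA array of its own cultures. The differences were -1.22 ± 0.08 in CD95L-T4 cultures (SE, adjusted p = 3.03e-09) and -1.41 ± 0.08 in control cultures (adjusted p = 1.70e-10), the second a 2.65-fold lower level. Its 3 probe sets were all called lower in both cultures.

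Slc1a4 (ASCT1), which carries alanine, serine and cysteine, had 7.36, 7.35 and 6.99 in polysomal RNA and 8.42, 8.50, 8.57 and 8.55 in total RNA of CD95L-T4 cultures. Control cultures gave 7.24, 7.43, 7.30 and 7.09 in polysomal RNA and 8.40, 8.41, 8.55 and 8.38 in total RNA. The groups were apart by about a whole log2 unit, with differences of -1.28 and -1.17. Slc38a10, a member of the sodium-coupled neutral amino acid transporter family, differed by -1.24 and -1.37. Its 7 probe sets did not all move alike, since 6 were lower and 1 dim probe set, at a level of 5.49, was higher by 0.65 in control cultures. Slc38a2 (SNAT2), which takes up small neutral amino acids, differed by -0.85 and -0.98.

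The pair that forms the large neutral amino acid exchanger also fell, the light chain Slc7a5 (LAT1) more than its heavy chain Slc3a2 (4F2hc). Slc7a5 had 9.33, 9.26 and 9.27 in polysomal RNA and 10.25, 10.28, 10.19 and 10.36 in total RNA of CD95L-T4 cultures. Control cultures had 9.43, 9.36, 9.17 and 9.26 in polysomal RNA and 10.35, 10.13, 10.21 and 10.24 in total RNA. No polysomal array reached a total RNA array, with differences of -0.98 ± 0.08 and -0.93 ± 0.07. The differences of Slc3a2 were -0.50 ± 0.07 and -0.41 ± 0.06. Slc7a11 (xCT), the cystine importer that pairs with the same heavy chain, lay below the split at 4.92 and differed by -0.85 and -0.77. The glycine transporter Slc6a9 differed by -0.43 and -0.38, the second -0.17 with the mean of all its probe sets (adjusted p = 0.0586). Among the remaining amino acid carriers named, Slc1a5 (ASCT2) differed by -0.15 and 0.03 and was not called, except in CD95L-T4 cultures without the dimmest 50% of probe sets (adjusted p = 0.0429). Slc38a1 was called lower in CD95L-T4 cultures at -0.30, and its -0.21 in control cultures was not called. Without CD95L-T4 total replicate 4 the first was -0.23 (adjusted p = 0.0762), and without CD95L-T4 polysomal replicate 1 it was -0.24 (adjusted p = 0.0979). That call was also lost with quantile scaling over all arrays (-0.21, adjusted p = 0.105), equal medians (-0.21, adjusted p = 0.104) and array weights (-0.32, adjusted p = 0.0573). The control difference was called with array weights (-0.21, adjusted p = 0.0449), without control total replicate 1 (-0.26, adjusted p = 0.0438) and without control polysomal replicate 3 (-0.26, adjusted p = 0.0469). The glutamate transporters Slc1a1 and Slc1a2 and the arginine transporter Slc7a1 had levels of 4.02, 4.48 and 4.26 and were not called in either culture from the brightest probe sets. Slc1a2 was called lower in control cultures with quantile scaling over all arrays (-0.35, adjusted p = 0.0341) and without control total replicate 1 (-0.36, adjusted p = 0.0480), and 1 of 3 probe sets of Slc1a1 was called higher there by 0.39.

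Zinc and other metal transporters were lower or not called. Of 21 genes for transition metals and magnesium above 6.03, 13 were lower and none higher in CD95L-T4 cultures, and the counts were the same in control cultures. With quantile scaling over all arrays 2 of the 21 were higher in control cultures, and with equal medians 3. The Slc39 (ZIP) importers had 6 of 10 lower and the Slc30 (ZnT) exporters 4 of 8 lower in each culture, against 21.8% of all genes in CD95L-T4 cultures and 23.2% in control cultures. Slc39a6 (ZIP6), a zinc importer, had the largest fall of any Slc gene in both cultures when each gene was read from its brightest probe set. A dimmer probe set of Slc1a3 fell more, by -1.91 and -1.90, than either probe set of Slc39a6. In CD95L-T4 cultures so did a dimmer probe set of the vitamin C transporter Slc23a2, by -1.74. The brightest probe set of Slc39a6 had 9.08, 8.96 and 8.94 in polysomal RNA and 10.53, 10.49, 10.47 and 10.51 in total RNA of CD95L-T4 cultures. The control values were 8.88, 8.88, 8.75 and 8.68 in polysomal RNA and 10.49, 10.49, 10.40 and 10.37 in total RNA. All polysomal arrays lay more than 1 log2 unit below all total RNA arrays. The differences were -1.51 ± 0.07 (adjusted p = 2.24e-10) and -1.64 ± 0.07 (adjusted p = 2.03e-11), 2.84-fold and 3.12-fold lower.

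Other zinc importers changed less. Slc39a1 (ZIP1) differed by -0.40 in CD95L-T4 cultures and -0.39 in control cultures, and Slc39a9 (ZIP9) by -0.54 and -0.44. Of the 3 probe sets of Slc39a9, 1 dim one at 4.60 was called higher in control cultures by 0.38. The zinc exporter Slc30a1 (ZnT1) differed by -0.22, not called, and -0.26, called. Its control call was lost without control total replicate 2 or 4 or control polysomal replicate 1 or 4 (-0.21 to -0.26, adjusted p = 0.0516 to 0.0935), with quantile scaling over all arrays (-0.15, adjusted p = 0.209) and with equal medians (-0.17, adjusted p = 0.164). In CD95L-T4 cultures it was called without polysomal replicate 2 (-0.32, adjusted p = 0.0214). The iron importer Slc11a2 (DMT1) differed by -0.20 and -0.14 and the iron exporter Slc40a1 (ferroportin) by -0.05 and -0.14, with no call in either culture from the brightest probe sets. Slc11a2 was called lower in CD95L-T4 cultures with the mean of its probe sets (-0.26, adjusted p = 0.0125) and without CD95L-T4 polysomal replicate 2 (-0.29, adjusted p = 0.0496), and 1 of its 3 probe sets was called lower in each culture, at -0.52 and -0.45. Of the 2 probe sets of Slc40a1, 1 was called higher in CD95L-T4 cultures by 0.28.

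**Figure D2:**
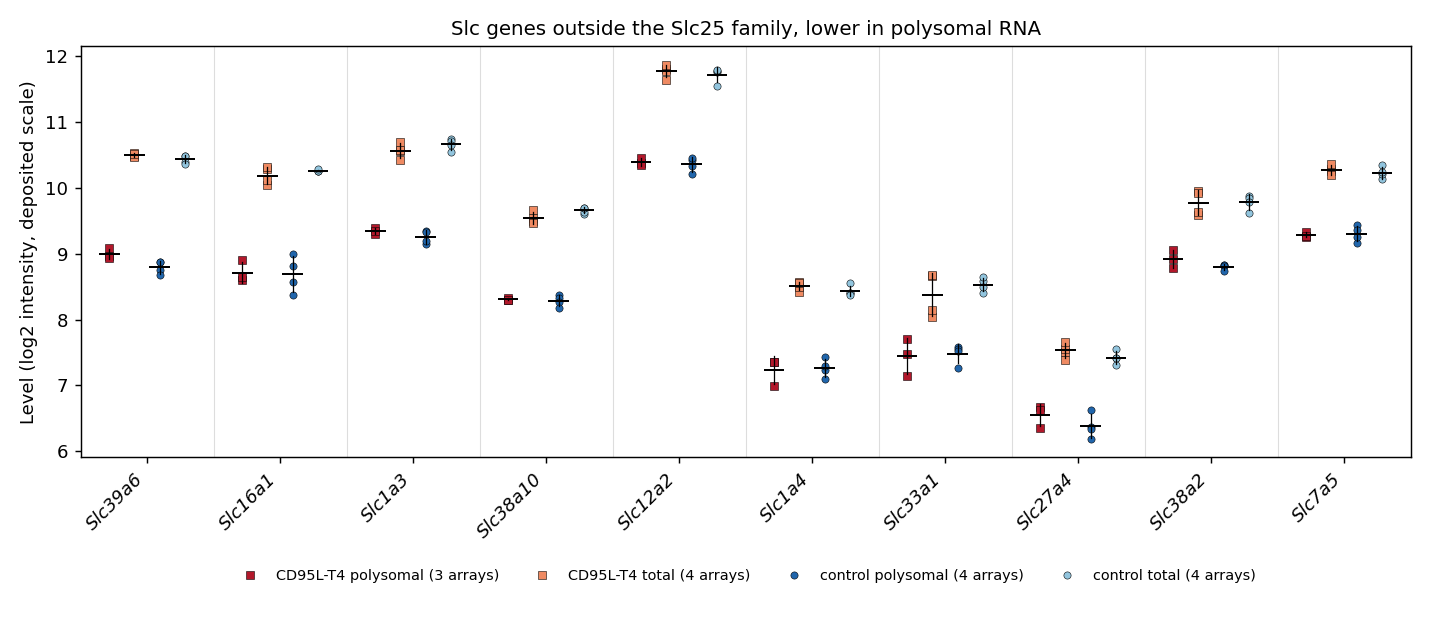
Levels (log2 intensity as deposited) of 10 Slc genes outside the Slc25 family on each array, with polysomal left of total RNA and CD95L-T4 cultures (squares) left of control cultures (circles) for each gene; bars are means ± SD. For each gene the polysomal arrays lie below the total RNA arrays of the same cultures, as for Slc39a6 at 8.94 to 9.08 against 10.47 to 10.53 in CD95L-T4 cultures.

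Transporters of ions above the split were also mostly lower. Of 12 genes for inorganic ions above 6.03, 8 were lower in each culture, and none was higher in CD95L-T4 cultures and 2 in control cultures. Over all levels 10 of 36 were lower in each culture, with 3 higher in CD95L-T4 cultures and 6 in control cultures. The 27.8% lower over all levels lies near the 21.8% and 23.2% of all genes. Slc12a2 (NKCC1), which brings sodium, potassium and chloride into neural progenitors, had the second highest level of any Slc gene outside Slc25, 11.11. It had 10.38, 10.35 and 10.46 in polysomal RNA and 11.64, 11.81, 11.78 and 11.87 in total RNA of CD95L-T4 cultures. Control cultures gave 10.34, 10.42, 10.21 and 10.46 in polysomal RNA and 11.76, 11.55, 11.77 and 11.79 in total RNA. Its polysomal arrays all lay at least 1 log2 unit below the total RNA arrays, with differences of -1.38 ± 0.09 and -1.36 ± 0.08, 2.60-fold and 2.57-fold lower, and all 3 probe sets were lower in both cultures.

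The phosphate importers Slc20a2 (PiT2) and Slc20a1 (PiT1) differed by -1.21 and -0.53 in CD95L-T4 cultures and by -0.97 and -0.48 in control cultures. The sodium-bicarbonate carrier Slc4a4 differed by -0.76 and -0.73. The related carrier Slc4a8 differed by -0.62 and -0.53, while its other probe set, at a level of 3.53, was called higher by 0.23 in control cultures. Slc12a5 (KCC2), the chloride exporter of mature neurons, had a level of 5.55 and differed by -0.51 and -0.50. With the mean of its probe sets the first was -0.12 (adjusted p = 0.354).

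Slc16a1 (MCT1), a carrier of lactate and other monocarboxylates, had 8.90, 8.60 and 8.64 in polysomal RNA and 10.28, 10.31, 10.04 and 10.12 in total RNA of CD95L-T4 cultures. Control cultures had 8.82, 9.0, 8.37 and 8.57 in polysomal RNA and 10.26, 10.26, 10.25 and 10.28 in total RNA. The fractions did not come near each other, with differences of -1.47 ± 0.12 and -1.57 ± 0.11, 2.78-fold and 2.97-fold lower. The fatty acid transport protein Slc27a4 differed by -0.98 and -1.04, and the glucose transporter Slc2a1 (GLUT1) by -0.62 and -0.63. Slc2a3 (GLUT3) was called lower in CD95L-T4 cultures at -0.41 and not in control cultures at -0.14, although 1 of its 4 probe sets was called lower there. Another of its probe sets, used when probe sets shared between transcripts were set aside, gave 0.05 in CD95L-T4 cultures (adjusted p = 0.776).

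Carriers of the ER and Golgi, which supply nucleotide sugars and acetyl groups for glycan and protein modification, had 13 of 20 genes above 6.03 lower and 2 higher in CD95L-T4 cultures, and 11 lower and 2 higher in control cultures. Slc33a1, which brings acetyl-CoA into the ER, differed by -0.94 ± 0.15 and -1.05 ± 0.14. The CMP-sialic acid carrier Slc35a1 differed by -0.34 and -0.30. Slc35a4 of the same family was higher in polysomal RNA. It had 9.61, 10.20 and 9.56 in polysomal RNA and 9.41, 9.35, 9.40 and 9.37 in total RNA of CD95L-T4 cultures. The control values were 10.24, 9.86, 9.91 and 9.78 in polysomal RNA and 9.34, 9.34, 9.34 and 9.31 in total RNA. CD95L-T4 polysomal replicate 2 and control polysomal replicate 1 were the highest, and no polysomal array fell to a total RNA level. The differences were 0.41 ± 0.13 and 0.62 ± 0.12. Without CD95L-T4 polysomal replicate 2 the first was 0.20 (adjusted p = 0.109), and with array weights it was 0.315 (adjusted p = 0.05145).

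Carriers of nucleosides, vitamins, choline and organic ions had 11 of 17 genes above 6.03 lower in each culture, with none higher in CD95L-T4 cultures and 3 in control cultures. Slc44a1, a choline transporter, differed by -0.85 in CD95L-T4 cultures and -0.86 in control cultures, and 1 of its 2 probe sets was called. Slc29a1 (ENT1), which equilibrates nucleosides, differed by -0.64 and -0.54. The neurotransmitter group, which holds the whole Slc6 family, had 4 genes above 6.03, of which Slc6a9 and the creatine transporter Slc6a8 were lower in each culture. Slc6a8 differed by -0.49 and -0.58, and the taurine transporter Slc6a6, at 5.15, by -0.14 and 0.00, not called. The vesicular glutamate transporter Slc17a6, a marker of glutamatergic neurons, lay at 3.95 and was not called. Of 10 genes for sugars, organic acids and fatty acids above 6.03, 6 were lower and 1 higher in CD95L-T4 cultures, and 5 were lower and 2 higher in control cultures. Over all levels this group had 9 of 37 lower and 5 higher in CD95L-T4 cultures, but 6 lower and 10 higher in control cultures. Its shares lower were 24.3% and 16.2%, against 21.8% and 23.2% of all genes.

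**Figure D3:**
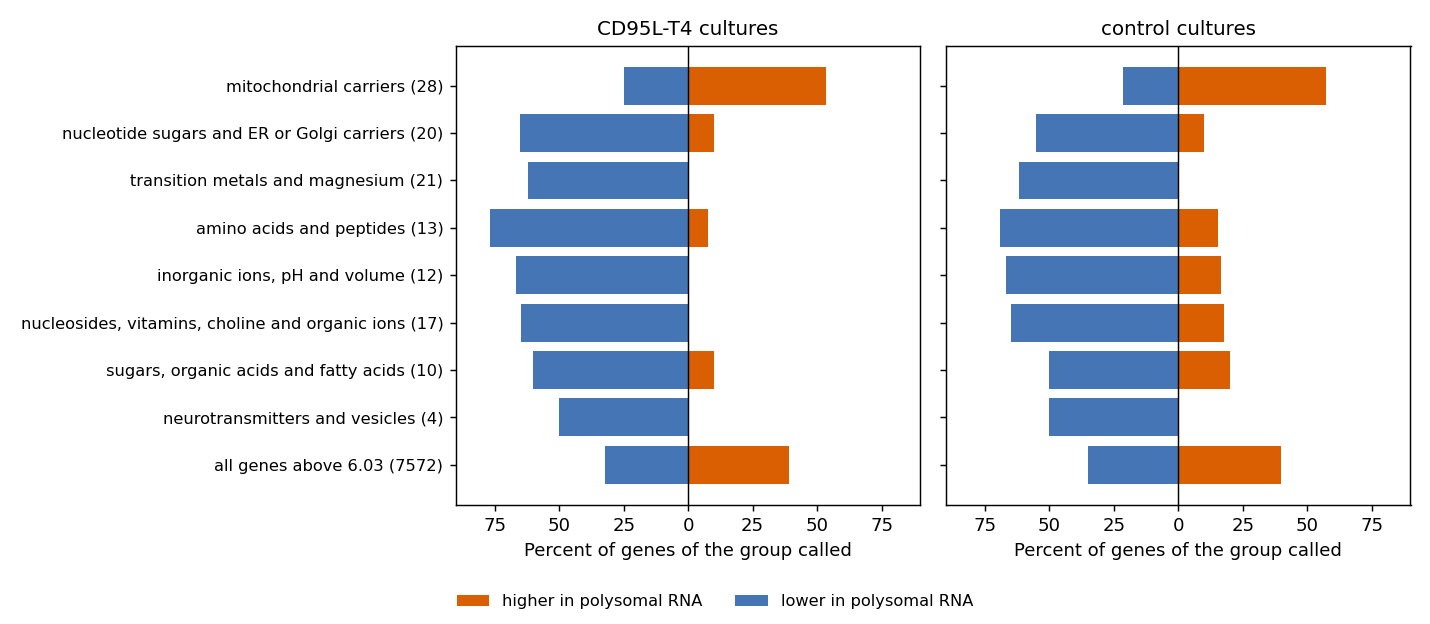
Share of the genes of each transport role above the level of 6.03 (percent, number of genes in brackets) that were called lower (left of 0) or higher (right of 0) in polysomal RNA, for CD95L-T4 cultures in the left panel and control cultures in the right, with all 7572 genes above that level at the bottom. The mitochondrial carriers have 15 and 16 of 28 genes higher, while the other transport roles drawn have more genes lower than higher.

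On the deposited scale, rises outside the Slc25 family were about as frequent above the split as below it. In CD95L-T4 cultures 5.88% of these genes above it and 7.94% below it were higher, against 39.1% and 14.6% of all genes. In control cultures the shares were 13.7% and 15.9%, against 39.7% and 23.6%. With equal array medians rises were more frequent below the split. Above it lay 10 of 38 rises in CD95L-T4 cultures and 18 of 59 in control cultures. Slc1a6, a glutamate transporter known from Purkinje cells, had the largest called rise outside Slc25 when each gene was read from its brightest probe set. A dimmer probe set of Slc35a4 rose more, by 0.90 and 1.06. Slc1a6 had 5.08, 5.07 and 5.04 in polysomal RNA and 4.03, 3.73, 4.75 and 4.42 in total RNA of CD95L-T4 cultures. Control cultures gave 5.26, 5.16, 4.95 and 5.24 in polysomal RNA and 4.36, 4.43, 4.12 and 4.0 in total RNA. The groups did not overlap, total RNA arrays varied more than polysomal ones, and the differences were 0.83 ± 0.17 and 0.93 ± 0.16. Slc27a3, an acyl-CoA synthetase of the fatty acid transport protein family, differed by 0.45 and 0.75. The sodium-calcium exchanger Slc8a2 differed by 0.59 and 0.58, the lysosomal histidine and peptide carrier Slc15a4 by 0.37 and 0.59, and the dicarboxylate carrier Slc13a3 by 0.54 and 0.57. Slc13a2, which carries dicarboxylates and citrate, and Slc7a4 differed by 0.29 and 0.31 in CD95L-T4 cultures, not called, and by 0.53 and 0.58 in control cultures. The monocarboxylate carrier Slc16a8 differed by 0.38 and 0.29, and the chloride exchanger Slc26a3, at a level of 3.44, by 0.44 and 0.37. The scaffold Slc9a3r2, no transporter, differed by 0.64 and 0.47.

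Among the mitochondrial carriers, each read from its brightest probe set, the largest rises came from nucleotide, iron and glycine carriers of moderate level. Dimmer probe sets of Slc25a51 and Slc25a39 rose by up to 0.94 and 0.85 in CD95L-T4 cultures. In control cultures they rose by up to 1.08 and 0.99. Of 3 probe sets of each gene, 2 of Slc25a51 and 3 of Slc25a39 were called higher in each culture. Slc25a23, a calcium-regulated exchanger of ATP-Mg and phosphate, had 7.84, 7.76 and 8.08 in polysomal RNA and 6.85, 6.96, 6.84 and 6.77 in total RNA of CD95L-T4 cultures. Control cultures had 7.94, 7.89, 7.99 and 8.05 in polysomal RNA and 6.94, 6.67, 6.67 and 6.79 in total RNA. Every polysomal array was higher than every total RNA array, by differences of 1.04 ± 0.09 (2.05-fold, adjusted p = 4.33e-08) and 1.20 ± 0.08 (2.30-fold, adjusted p = 2.04e-09). Slc25a33, a pyrimidine nucleotide carrier, had 9.21, 9.13 and 9.12 in polysomal RNA and 8.17, 8.19, 8.04 and 8.21 in total RNA of CD95L-T4 cultures. The control values were 9.19, 9.18, 9.30 and 9.04 in polysomal RNA and 8.21, 8.05, 7.95 and 7.85 in total RNA. The groups were far apart, with differences of 1.0 ± 0.09 and 1.16 ± 0.08.

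Slc25a38, a glycine carrier needed for haem synthesis, differed by 0.69 and 0.92, and Slc25a28 (mitoferrin-2), which brings iron into mitochondria, by 0.69 and 0.84. Slc25a47 and Slc25a30 differed by 0.57 and 0.67 in CD95L-T4 cultures and by 0.72 and 0.70 in control cultures. The carnitine-acylcarnitine carrier Slc25a20, below the split at 5.68, differed by 0.58 and 0.41. The ornithine carrier Slc25a15 differed by 0.35 and 0.20 with its brighter probe set, while its dimmer one, at 6.74, was called lower in both cultures, by -0.44 and -0.40. The oxoglutarate carrier Slc25a11 differed by -0.02 and -0.11 and was not called.

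The carriers that fell included the most abundant ones. Slc25a3, which imports the phosphate for ATP synthesis, had 12.42, 12.02 and 12.32 in polysomal RNA and 12.60, 12.64, 12.70 and 12.60 in total RNA of CD95L-T4 cultures. Control cultures gave 12.05, 12.03, 12.10 and 12.12 in polysomal RNA and 12.61, 12.62, 12.57 and 12.59 in total RNA. CD95L-T4 polysomal replicates 1 and 3 lay above all control polysomal arrays but below all total RNA arrays, and the differences were -0.38 ± 0.08 and -0.52 ± 0.08. The ADP/ATP exchangers Slc25a4 and Slc25a5, which pass ATP out of the mitochondria, differed by -0.46 and -0.49 in CD95L-T4 cultures and by -0.65 and -0.68 in control cultures.

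The size of these falls differed between probe sets. Slc25a4 and Slc25a5 are close paralogs, and whether their probe sets share transcripts was not tested. Of the 8 probe sets of Slc25a5, 4 were called lower in CD95L-T4 cultures and 6 in control cultures, and none was called higher. Of the 4 of Slc25a4, 3 were called lower and 1 higher in CD95L-T4 cultures and 3 lower in control cultures. With the mean of all probe sets, the differences in CD95L-T4 cultures were -0.18 for Slc25a4 (adjusted p = 0.169) and -0.10 for Slc25a5 (adjusted p = 0.555), while both calls held without probe sets whose names mark shared transcripts (-0.46 and -0.55). Slc25a13 (citrin), an aspartate-glutamate exchanger of the malate-aspartate shuttle, differed by -0.54 and -0.36, and Slc25a53 by -0.31 and -0.34. Slc25a24, a second ATP-Mg and phosphate exchanger, was called lower in CD95L-T4 cultures at -0.37 and not in control cultures at -0.09. Without CD95L-T4 polysomal replicate 2 it was -0.25 (adjusted p = 0.0695).

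**Figure D4:**
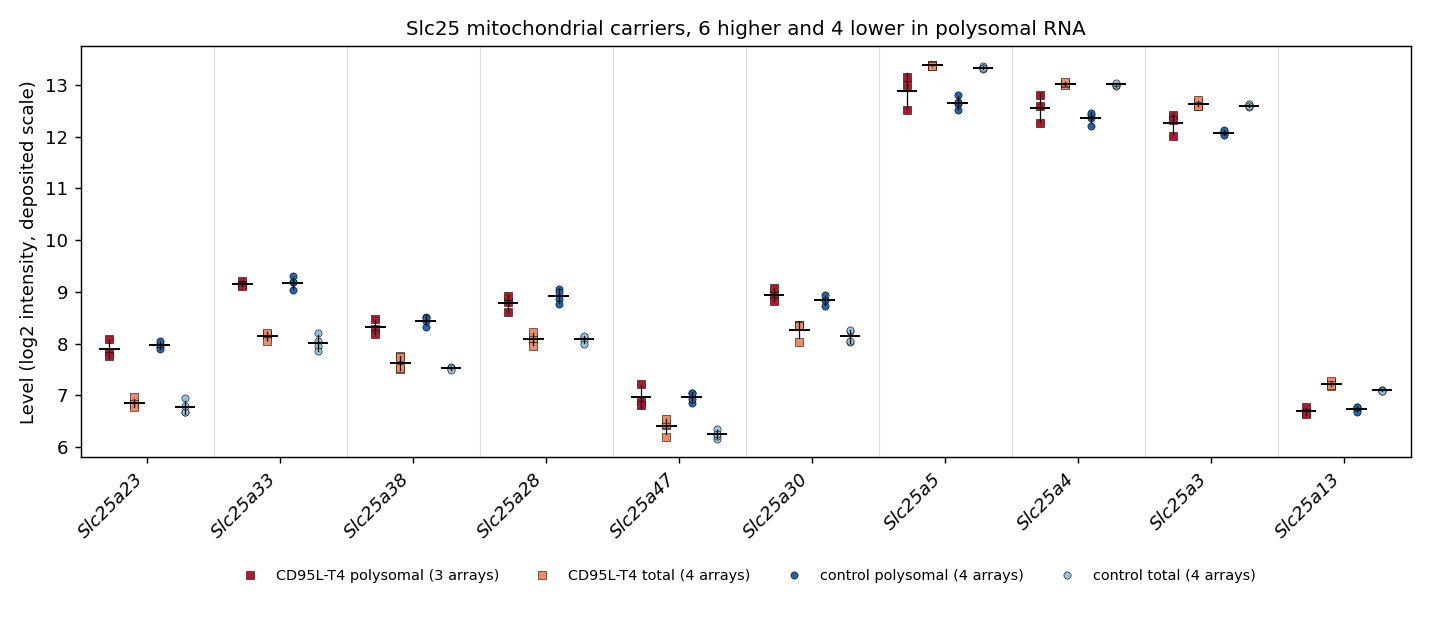
Levels (log2 intensity as deposited) of 10 Slc25 genes on each array, drawn with polysomal left of total RNA and CD95L-T4 cultures (squares) left of control cultures (circles) for each gene; bars are means ± SD. The first 6 genes are higher in polysomal RNA, such as Slc25a23 at 7.76 to 8.08 against 6.77 to 6.96 in CD95L-T4 cultures, and the last 4 are lower, with Slc25a5, Slc25a4 and Slc25a3 the most abundant shown.

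Promoter windows were read for the 205 of 261 genes with an entry in the RefSeq table (GRCm38.p6), 26 of them Slc25 genes. The 250 bases before the gene start had a median GC content of 60.8% over Slc25 genes, 61.4% over other Slc genes above the level of 6.03, 54.0% over those below it and 52.4% over 27025 genes. Motifs were searched on both strands. CCAAT, the NF-Y motif (read as ATTGG on the other strand), was present in 15 of 26 Slc25 windows (57.7%), 65 of 179 other Slc windows (36.3%) and 37.5% of all. TGATGNAA, the ATF4-C/EBP motif of amino acid response genes (TTNCATCA on the other strand), was present in 0 of 26, in 5 of 179 (2.79%) and in 3.91% of all.

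The NRF1 motif (GCGCA, then any base, then GCGC), known from promoters of mitochondrial genes, was present in 1 of 26 Slc25 windows (3.85%), in 8 of 82 windows of other Slc genes above the level (9.76%), in 1 of 97 below it (1.03%) and in 4.23% of all. TGACGTCA, the palindromic cyclic AMP response element, was present in 2 of 26 Slc25 windows (7.69%), in 0 of 179 others and in 1.77% of all. Printed here, 40 bases each with the motif in capitals, are the windows of the Slc25 genes with either of these motifs and of Slc33a1, 1 of the falling ER carriers. A match shows letters in a window and is not a measured site. Slc25a3 lies at chr10:91124157-91124196, Slc33a1 at chr3:63964786-63964825, Slc25a25 at chr2:32424193-32424232 and Slc25a36 at chr9:97111179-97111218, all on the minus strand, and the motifs begin at -214, -77, -150 and -161 from the gene start.
Slc25a3: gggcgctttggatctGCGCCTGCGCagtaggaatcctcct
Slc33a1: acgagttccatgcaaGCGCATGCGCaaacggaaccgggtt
Slc25a25: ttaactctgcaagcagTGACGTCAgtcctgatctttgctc
Slc25a36: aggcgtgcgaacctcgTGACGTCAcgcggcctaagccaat
The genes of these windows did not move alike. Slc25a36, which carries pyrimidine nucleotides, was higher in polysomal RNA by 0.43 in CD95L-T4 cultures and 0.28 in control cultures. Slc25a25, an ATP-Mg and phosphate exchanger, differed by 0.11 and 0.12 and was not called, and Slc25a3 and Slc33a1 were lower, as given above.

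Other transport genes were described from lists, to be read against the 29.6% higher and 21.8% lower of all genes in CD95L-T4 cultures and the 33.5% and 23.2% in control cultures. ABC transporters, pumps that use ATP, had 5 of 36 higher and 15 lower in CD95L-T4 cultures and 4 higher and 16 lower in control cultures. The lipid exporter Abca3 differed by -1.23 and -1.45, and the peroxisomal transporter Abcd3 by -0.88 and -0.76. The sodium-potassium and calcium pumps had 5 of 10 lower and none higher in each culture, with -1.75 and -2.02 for the ER calcium pump Atp2a2 and -1.17 and -1.29 for the Golgi pump Atp2c1. Of 11 Slco organic anion transporters 2 were higher and 1 lower in each culture. These were led by Slco3a1 at -0.91 and -1.04 and Slco1a4 at 0.37 and 0.53. The vacuolar proton pump had 6 of 21 subunits higher and 8 lower in CD95L-T4 cultures and 7 higher and 10 lower in control cultures. Its accessory membrane proteins Atp6ap2 and Atp6ap1 differed by -1.65 and -1.38 in CD95L-T4 cultures and by -1.71 and -1.39 in control cultures.

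Among mitochondrial genes outside the Slc25 names, those for oxidative phosphorylation were mostly higher and the shorter lists were mixed. The oxidative phosphorylation shares higher were 62% and 67.1%, against 29.6% and 33.5% of all genes and 54.5% and 57.6% of Slc25 genes. Nuclear genes for oxidative phosphorylation had 49 of 79 higher and 12 lower in CD95L-T4 cultures (median 0.39) and 53 higher and 14 lower in control cultures (median 0.50). Sdha, a subunit of succinate dehydrogenase, and Ndufs1, a subunit of complex I, were among those lower, by -1.99 and -1.48 in CD95L-T4 cultures and -2.02 and -1.62 in control cultures. Of 5 other channels and carriers of the inner membrane 1 was higher and 1 lower in CD95L-T4 cultures, and 1 higher and 4 lower in control cultures. The pyruvate carrier subunit Mpc1 was higher by 1.32 and 1.42, and Letm1, a cation exchanger, differed by -0.87 and -0.87. Of 4 carrier homologues without the Slc25 name 1 was higher and none lower in CD95L-T4 cultures and 1 higher and 1 lower in control cultures. Mtch1 differed by 0.61 and 0.67, and Mtch2 by -0.19, not called, and -0.34.

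CD95L-T4 against control gave no Slc gene past the threshold. In total RNA none of 261 was called (0% of all genes), while 10 had an unadjusted p under 0.05, against 3.44% of all genes. In polysomal RNA none was called (0% of all genes) and 16 had such a p, against 9.49%. For the difference between these effects none was called (0% of all genes) and 7 had such a p, against 3.99%. The 95% interval lay within 1.5-fold for 258 of 261 genes (98.9%) in total RNA, for 258 in polysomal RNA and for 239 (91.6%) for the difference of effects, and within 2-fold for all 261 in each. Log2 differences ran from -0.30 to 0.31 in total RNA and from -0.33 to 0.35 in polysomal RNA.

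The smallest unadjusted p in 2 of these comparisons belonged to Slc47a1, a multidrug exporter of kidney and liver, at a level of only 3.10. It had 2.83, 2.92 and 3.22 in polysomal RNA of CD95L-T4 cultures, against 3.17, 3.26, 3.36 and 3.26 in that of control cultures. In total RNA it had 3.24, 3.13, 3.14 and 3.28 in CD95L-T4 cultures, against 2.82, 2.85, 2.90 and 3.10 in control cultures. The polysomal arrays overlapped and the total RNA arrays did not, with differences of -0.27 (adjusted p = 0.474) and 0.28 (adjusted p = 0.997). Their difference was -0.55 (adjusted p = 0.897), and the level is near the bottom of the scale.

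In total RNA the next smallest p belonged to Slc7a12 (-0.30), Slc2a3 (0.30), the vesicular GABA carrier Slc32a1 (0.28) and the sulphate carrier Slc26a2 (0.22). In polysomal RNA they belonged to Slc4a1, the anion exchanger of red cells (-0.33), the sulphate carrier Slc26a1 (0.35), Slc39a6 (0.20) and Slc15a4 (-0.24), beside Slc47a1. For Slc39a6 the polysomal values were 9.08, 8.96 and 8.94 in CD95L-T4 cultures, against 8.88, 8.88, 8.75 and 8.68 in control cultures. These did not overlap, but the adjusted p was 0.483. For the difference of effects they belonged to Slc7a12 (0.48), Slc20a2 (-0.24), the organic anion carrier Slc22a6 (0.25) and the thiazide-sensitive cotransporter Slc12a3 (-0.31), after Slc47a1.

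The polysomal comparison depended on 1 array. CD95L-T4 polysomal replicate 2 had poly-A control transcripts at 9.86, against 8.18 and 8.32 on the other CD95L-T4 polysomal arrays. Without it 9 Slc genes passed the threshold in the polysomal comparison of CD95L-T4 with control, 5 higher and 4 lower, against 3.08% and 3.29% of all genes. The higher ones were Slc25a5 (0.42), Slc26a1 (0.42), Slc9a3r1 (0.36), Slc25a4 (0.34) and Slc25a3 (0.30), and the lower ones Slc35a4 (-0.36), Slc31a2 (-0.32), Slc48a1 (-0.30) and Slc30a6 (-0.28). The high array values of Slc25a5 show the pattern, at 13.15, 12.52 and 13 in CD95L-T4 polysomal RNA, against 12.51, 12.63, 12.66 and 12.81 in control polysomal RNA. Replicate 2 lay among the controls while replicates 1 and 3 lay above them. These 9 genes are named because they were few, after their values were seen, and no single replicate left out of the other comparisons of CD95L-T4 with control gave a call among Slc genes.

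**Figure D5:**
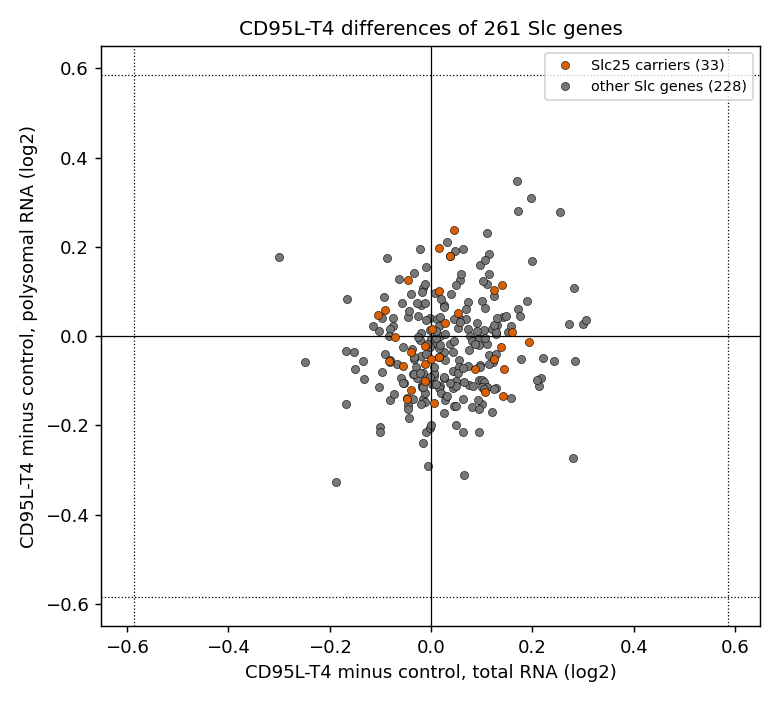
CD95L-T4 minus control difference (log2) of each of 261 Slc genes in total RNA (horizontal axis) and polysomal RNA (vertical axis), with Slc25 genes in orange, other Slc genes in grey and dotted lines at 1.5-fold. All points lie inside the 1.5-fold lines, between -0.30 and 0.31 in total RNA and between -0.33 and 0.35 in polysomal RNA.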

How the data were processed

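Levels were read on Affymetrix mouse arrays. The authors deposited log2 values rounded to 2 decimals; the normalisation, tools and date are not given in the sources used here. Groups were taken from the sample titles, since the treatment label of treated samples names only the cells. Members, role groups and lists were chosen with earlier results of these data known.

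Of 22690 probe sets, 64 control probe sets were left out and 22626 entered a model of group means over the 15 arrays (limma 3.58.1, R 4.3.3) whose variances were moderated with 5.78 prior degrees of freedom. P-values are two-sided and adjusted by Benjamini and Hochberg over 22626 probe sets, with a threshold of 0.05. Errors are limma's standard errors. A gene was read from its probe set of highest mean level. Of 99 members with several probe sets, 66 had all of 1 sign and 4 had calls in both directions in control cultures. All 261 members were found in the reference gene table by gene identifier. The number of arrays limits the precision, as arrays carry no read depth.

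Named were 34 measured genes of a list of 40, the 5 largest rises and falls in Slc25 and the 8 largest in the other members per fraction comparison, the 5 smallest p per CD95L-T4 comparison, genes with opposed probe sets and 2 genes per list. Role groups come from the family number, and members of 1 family not in that list (2 genes) and the 3 genes that are no transporters are left out of the roles. The model fit was tested on simulated data for CD95L-T4 against control in total and in polysomal RNA only. The comparisons of polysomal with total RNA, the level split and the role counts were not simulated. Same-numbered replicates had residual correlations between -0.234 and 0.197. With 3 or 4 arrays per group these values cannot decide whether a shared number marks a shared source. The labels do not state it, and the main fit used no pairing. Alternatives were other scalings between arrays, filters on dim probe sets, the compared groups alone, a replicate block, array weights, a variance trend with robust moderation, a size threshold, averaging a gene's probe sets, leaving out each array and, chosen after seeing the data, leaving out shared probe sets.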

Additional observations from a re-analysis of the deposited data

Results flagged for a closer look

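Among the named genes, 210 sets of 4 arrays were examined, and in 12 of them 1 array stood apart from the other 3 by more than Dixon's 95% critical value; chance alone flags about 1 set in 20. Of CD95L-T4 total RNA, Slc25a20 had 5.25 on replicate 2, against 5.48 to 5.51 on the others, and Slc25a30 had 8.02 on replicate 3, against 8.34 to 8.36. Of control polysomal RNA, replicate 1 had Slc15a4 at 8.70 (others 8.48 to 8.50) and Slc4a4 at 6.12 (others 5.94 to 5.97). Replicate 4 had Slc20a2 at 8.51 (others 8.41 to 8.42), Slc25a20 at 6.03 (others 5.83 to 5.86), Slc38a2 at 8.73 (others 8.82 to 8.83) and Slc4a8 at 5.47 (others 5.67 to 5.71). Of control total RNA, replicate 2 had Slc12a2 at 11.55 (others 11.76 to 11.79). Replicate 4 had Slc29a1 at 7.75 (others 7.37 to 7.41), Slc35a4 at 9.31 (all others 9.34) and Slc8a2 at 5.37 (others 5.83 to 5.88).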

How the results depend on the processing

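With polysomal and total RNA extracted differently and 3 or 4 arrays per group, small differences and dim genes are the least certain. Over the scalings between arrays, the share higher among called Slc25 genes was 72% to 73.1% in CD95L-T4 cultures and 76% to 80% in control cultures. Among called other Slc genes it was 18.6% to 36.5% and 33% to 50.4%, highest with equal array medians. Values below give CD95L-T4 cultures first and control cultures second unless 1 is named, and the cause of each shift was not tested.

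With quantile scaling over all arrays, other Slc genes had a median of -0.0286 in control cultures, 11 below the level of 6.03 were lower in each culture, and 10 above it were higher in CD95L-T4 cultures. With equal array medians, the Slc25 median was 0.409 and 0.338, other Slc genes had 38 and 59 higher with medians of 0.0321 and 0.108, 28 and 41 below the level were higher, and 10 above it were higher in CD95L-T4 cultures. Without the dimmest 25% of probe sets the median of other Slc genes was -0.205 and -0.145, with 13 below the level higher in control cultures. Without the dimmest 50% it was -0.421 and -0.403, with 6 and 11 higher, and no gene was left below the level. With array weights, 8 other Slc genes were higher in CD95L-T4 cultures, 3 above and 5 below the level.

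With a size threshold of 0.5 in log2, 2 and 4 Slc25 genes were higher and 0 and 0 lower, and 0 and 1 other Slc genes were higher and 22 and 20 lower. Of these, 22 and 20 lay above the level among the lower and 0 and 0 among the higher, and 0 and 1 lay below it among the higher and 0 and 0 among the lower. With the mean of all probe sets, the Slc25 median was 0.122 and 0.155. Leaving out 1 array at a time gave 3 to 8 other Slc genes above the level higher in CD95L-T4 cultures, with 3 without CD95L-T4 polysomal replicate 2. It gave 0 to 9 Slc genes called in polysomal CD95L-T4 against control. Without shared probe sets, Slc2a3 was 0.0525 in CD95L-T4 cultures. With a replicate block, 16 and 37 other Slc genes were higher and 18 and 19 Slc25 genes were higher, and no count moved by over 1.5 times.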
